A study of Homo sapiens with 16 samples.

Results

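The platelet-derived growth factor (PDGF) genes described here are the receptors PDGFRA and PDGFRB and the ligands PDGFA, PDGFB, PDGFC and PDGFD. They were found by matching gene symbols to the Ensembl identifiers of the count tables, and all 6 were present among 60448 genes. PDGF ligands are secreted dimers that bring receptor tyrosine kinases together at the cell surface. PDGFRA is activated by dimers that hold the A, B or C chain and PDGFRB by dimers of the B or D chain, and the C and D chains must first be cut by a protease outside the cell. In mammary tissue the receptors are best known from fibroblasts and perivascular cells, while epithelium is a classical source of the A chain, and epithelial cells that pass into a mesenchymal state can gain receptors.

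RNA was measured in HMLER cells, human mammary epithelial cells immortalised with telomerase and transformed with an oncogenic RAS gene. The design compared epithelial cells with mesenchymal cells along the epithelial to mesenchymal spectrum and comprised 16 libraries in 8 groups of 2. The groups sgEED-Mes and sgEED-Epi are C1 cells labelled as EED knockouts, in a mesenchymal and an epithelial state. The groups sgKMT2D-Mes and sgKMT2D-Epi are C1 cells labelled as KMT2D knockouts in the same pair of states. C2-Mes and C2-Epi are wild-type cells, mesenchymal and plastic epithelial. The controls are sgControl, which are C1 cells with a control guide and a wild-type genotype, and C1 itself, unedited cells described as stably epithelial. EED belongs to a Polycomb complex that represses genes by methylating histone H3. KMT2D is a histone H3 methyltransferase that marks enhancers. All groups were grown in the same medium, whose listed supplements include EGF and insulin and no PDGF. The labels do not say whether both libraries of a group came from separate cultures or whether a group is 1 clone. Test results thus reflect the variation among these libraries, which may be technical, and clonal differences cannot be told apart from differences of state or genotype.

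Levels are CPM, that is counts scaled to the library total after TMM normalisation, and changes are log2 fold changes with their SE from edgeR's quasi-likelihood test, adjusted over 18285 genes. A change was called at an adjusted p under 0.05, and all 6 genes passed the filter on low counts. Total counts ran from 18872124 to 31950649, and both extremes are C2-Mes libraries. The C2-Mes libraries also stood apart from each other: log2 CPM correlated with r = 0.967 across genes, and the SD of their log2 differences was 0.890, where no other group exceeded 0.493. Changes in C2 are therefore also given without 1 of its libraries where that ends a call or moves a called value by over 1.5 times. EED transcripts stood at 5.22 and 5.50 CPM in sgEED-Mes and at 26.7 and 29.5 CPM in sgEED-Epi, against 26.6 and 21.6 CPM in sgControl. Pairs without an EED guide also had less EED in the mesenchymal group, with 11.2 and 12.5 CPM in C2-Mes. The log2 change, mesenchymal over epithelial, was -0.67 in C2, -0.73 in sgKMT2D and -2.39 in sgEED, each called. KMT2D transcripts stood at 86.5 and 76.8 CPM in sgKMT2D-Mes and at 124 and 127 CPM in sgKMT2D-Epi, against 89.8 and 70.9 CPM in sgControl. Counts per gene cannot show a disrupted reading frame. The labelled states matched their markers: 7 epithelial markers summed to between 27.6 and 152 CPM in the mesenchymal libraries and to between 4284 and 11425 CPM in the epithelial ones. The 7 mesenchymal markers summed to between 45850 and 156653 CPM in the mesenchymal libraries and to between 13209 and 24334 CPM in the epithelial ones. FN1 made up most of these sums, with epithelial group means from 12426 CPM (C2-Epi) to 21666 CPM (sgControl). ZEB1, PRRX1, COL3A1 and LUM had epithelial group means of at most 26.1 CPM. Each of the 7 had a higher mean in the mesenchymal group of each pair.

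PDGFRA (ENSG00000134853) lies on chromosome 4 from 54229097 to 54298247 on the plus strand of GRCh38, and PDGFRB (ENSG00000113721) on chromosome 5 from 150113837 to 150155872 on the minus strand. The ligand genes lie on the minus strands of chromosome 7 (PDGFA, ENSG00000197461, 497258 to 520296), chromosome 22 (PDGFB, ENSG00000100311, 39223359 to 39244751), chromosome 4 (PDGFC, ENSG00000145431, 156760454 to 156971394) and chromosome 11 (PDGFD, ENSG00000170962, 103907186 to 104164379). Start-site windows of RefSeq (GRCh38.p14) cover 250 bases before and 50 after an annotated start and were found for 4 of the 6 genes. The windows of both receptors and of PDGFD are printed, because these 3 genes hold the largest changes between epithelial and mesenchymal groups. The windows lie at chr4:54229043-54229342 on the plus strand (PDGFRA, upstream start), chr4:54233710-54234009 on the plus strand (PDGFRA, downstream start), chr5:150155796-150156095 on the minus strand (PDGFRB) and chr11:104164098-104164397 on the minus strand (PDGFD). Each is written from 5′ to 3′ along the gene, and capitals mark matches, on either strand, to the GC box GGGCGG and the CCAAT box, which do not overlap each other here.
PDGFRA, upstream start: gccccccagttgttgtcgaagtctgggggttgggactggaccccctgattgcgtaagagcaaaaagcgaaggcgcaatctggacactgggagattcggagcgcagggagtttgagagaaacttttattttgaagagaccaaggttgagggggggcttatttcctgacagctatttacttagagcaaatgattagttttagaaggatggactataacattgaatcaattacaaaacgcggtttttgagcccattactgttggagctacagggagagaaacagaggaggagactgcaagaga
PDGFRA, downstream start: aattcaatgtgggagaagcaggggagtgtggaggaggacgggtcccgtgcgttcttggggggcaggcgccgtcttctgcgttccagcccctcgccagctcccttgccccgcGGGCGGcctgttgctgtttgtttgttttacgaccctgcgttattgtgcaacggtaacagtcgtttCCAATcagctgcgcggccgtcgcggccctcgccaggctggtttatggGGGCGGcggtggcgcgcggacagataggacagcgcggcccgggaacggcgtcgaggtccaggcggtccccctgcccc
PDGFRB: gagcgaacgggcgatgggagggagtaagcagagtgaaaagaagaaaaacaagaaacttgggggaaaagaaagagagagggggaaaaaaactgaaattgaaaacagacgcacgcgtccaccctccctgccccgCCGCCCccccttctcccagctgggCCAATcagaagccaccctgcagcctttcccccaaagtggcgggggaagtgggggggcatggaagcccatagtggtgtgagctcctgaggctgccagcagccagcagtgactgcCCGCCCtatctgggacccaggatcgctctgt
PDGFD: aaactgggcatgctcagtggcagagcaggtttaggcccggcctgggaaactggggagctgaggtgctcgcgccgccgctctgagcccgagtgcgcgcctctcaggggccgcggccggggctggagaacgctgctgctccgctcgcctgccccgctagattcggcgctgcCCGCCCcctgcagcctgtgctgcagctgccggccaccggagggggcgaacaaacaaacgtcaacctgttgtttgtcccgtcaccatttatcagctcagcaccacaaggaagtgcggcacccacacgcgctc

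The windows differ in CpG content. The upstream PDGFRA window holds 8 CpG dinucleotides at 47% GC and none of the motifs, while the downstream one holds 32 at 66.7% GC, with 2 GC boxes and 1 CCAAT box. The PDGFRB window holds 11 CpG at 59.3% GC, with 2 GC boxes and 1 CCAAT box, and the PDGFD window holds 26 CpG at 67.3% GC with 1 GC box. Over 35114 such windows the median was 14 CpG and 58.7% GC, and 45% held a GC box and 34.6% a CCAAT box. The E-box CACCTG, bound by repressors of the ZEB and SNAI families and present in 20.6% of windows, and the TATA box TATAAA, present in 11.5%, have no match in the 4 printed windows. The 4 windows of PDGFA hold between 25 and 49 CpG, and 3 of them hold 1 match each to CACCTG. Which starts the HMLER cells use was not measured.

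PDGFRA and PDGFRB both rose in all 3 changes from an epithelial to a mesenchymal state, but not by like amounts. PDGFRA reached 56.5 and 92.8 CPM in C2-Mes, against 0.108 and 0.192 CPM in C2-Epi. It reached 92.3 and 88.5 CPM in sgKMT2D-Mes, against 1.28 and 0.756 CPM in sgKMT2D-Epi. In the third pair it stood at 3.48 and 3.30 CPM in sgEED-Mes, against 1.41 and 1.12 CPM in sgEED-Epi. The groups of each pair did not overlap, and the sgEED-Mes libraries lay far below the other 4 mesenchymal libraries. The controls were at the low end, with 0.126 and 0.0428 CPM in sgControl and 0.339 and 0.327 CPM in C1. The log2 change was 8.92 (SE 0.38, edgeR adjusted p = 4.4e-10) in C2, where C2-Mes held 3875 reads of the gene and C2-Epi 8. It was 6.46 (SE 0.30, edgeR adjusted p = 1.4e-09) in sgKMT2D and 1.42 (SE 0.29, edgeR adjusted p = 0.0015) in sgEED.

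The difference between these changes was itself tested. The log2 change of PDGFRA in sgEED differed from that in sgKMT2D by -5.03 (SE 0.42, edgeR adjusted p = 2.4e-06) and from that in C2 by -7.50 (SE 0.50, edgeR adjusted p = 1.7e-07). The change in sgKMT2D differed from that in C2 by -2.47 (SE 0.54, edgeR adjusted p = 0.0043). The mesenchymal levels of these 2 lines overlapped, and sgKMT2D-Epi stood above C2-Epi.

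PDGFRB stood highest in sgEED-Mes. It measured 244 and 163 CPM in sgEED-Mes, against 3.62 and 4.14 CPM in sgEED-Epi. In the KMT2D pair it measured 84.1 and 74.0 CPM in sgKMT2D-Mes, against 0.815 and 1.04 CPM in sgKMT2D-Epi. In the unedited pair it measured 57.6 and 107 CPM in C2-Mes, against 6.39 and 5.80 CPM in C2-Epi. The sgEED-Mes libraries were above all other libraries, and the ranges of C2-Mes and sgKMT2D-Mes overlapped. The controls stood at 4.11 and 4.20 CPM in sgControl and 3.35 and 4.01 CPM in C1, within the range of the other epithelial groups. The log2 change was 5.71 (SE 0.31, edgeR adjusted p = 6.4e-09) in sgEED, 6.42 (SE 0.34, edgeR adjusted p = 4.0e-09) in sgKMT2D and 3.75 (SE 0.28, edgeR adjusted p = 1.2e-07) in C2. The change in C2 was the smallest, by a log2 value of 1.96 against sgEED (SE 0.37, edgeR adjusted p = 0.0017) and of 2.66 against sgKMT2D (SE 0.41, edgeR adjusted p = 0.00036). Between sgEED and sgKMT2D the difference of -0.71 (SE 0.42) did not pass the test (edgeR adjusted p = 0.27).

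**Figure D1:**
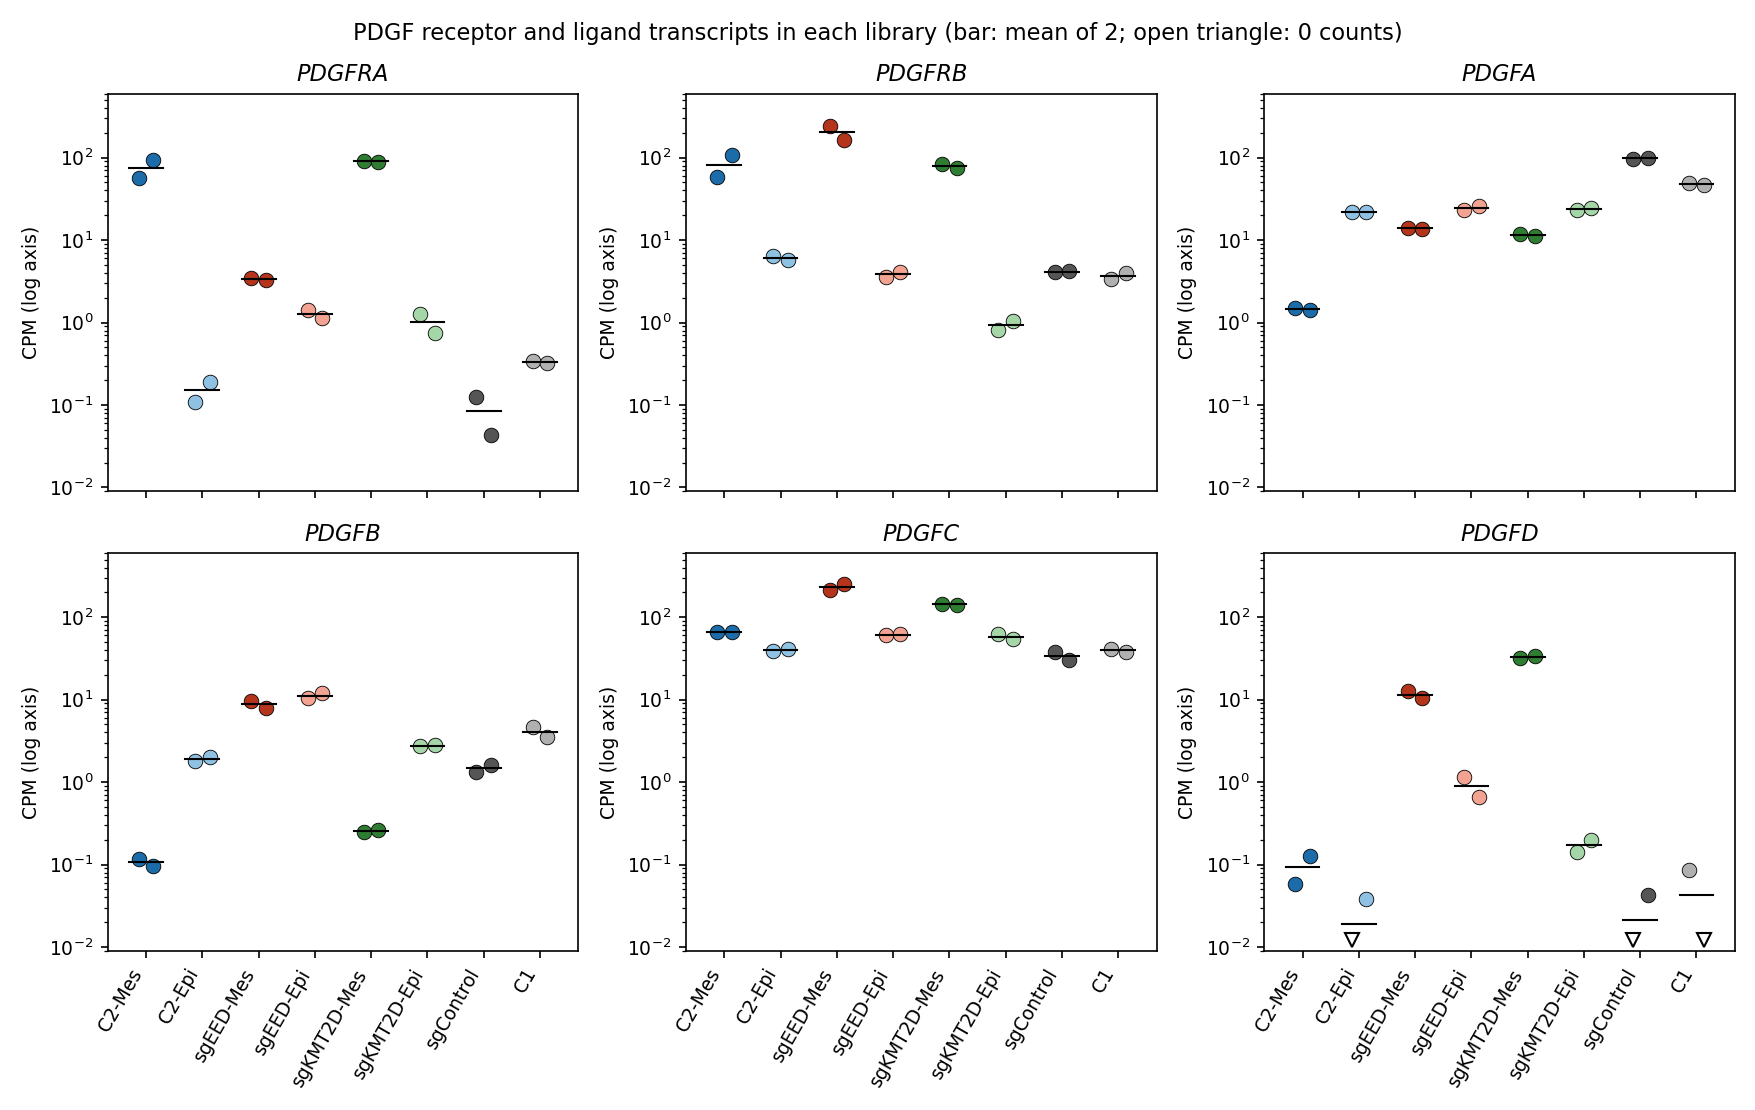
Level of each of the 6 genes in each library, as CPM on a log axis, with mesenchymal groups left of their epithelial groups and the controls at the right end. PDGFRA is at 56.5 to 92.8 CPM in C2-Mes and sgKMT2D-Mes and at 3.48 and 3.30 CPM in sgEED-Mes, where PDGFRB is at its highest, 244 and 163 CPM.

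Per kilobase of exon, PDGFRA made up 1.03% and 1.46% of the receptor transcripts in the sgEED-Mes libraries. Its share was 44.6% and 46.7% in sgKMT2D-Mes and 41.9% and 39.0% in C2-Mes. Both receptors were thus near an even balance in 2 of the mesenchymal groups, while PDGFRB made up nearly all receptor RNA in sgEED-Mes. In the epithelial groups PDGFRA took 22.2% and 16.6% in sgEED-Epi, 53.4% and 34.9% in sgKMT2D-Epi and 1.23% and 2.37% in C2-Epi, of sums under 1 CPM per kilobase, so that these shares rest on few reads. The summed receptor level was 34.6 and 23.2 CPM per kilobase in sgEED-Mes, 21.3 and 19.5 in sgKMT2D-Mes and 13.9 and 24.5 in C2-Mes. In the 10 epithelial libraries it ran from 0.223 to 0.906 CPM per kilobase. In bulk RNA, fewer cells with a receptor and less receptor RNA per cell cannot be told apart.

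**Figure D2:**
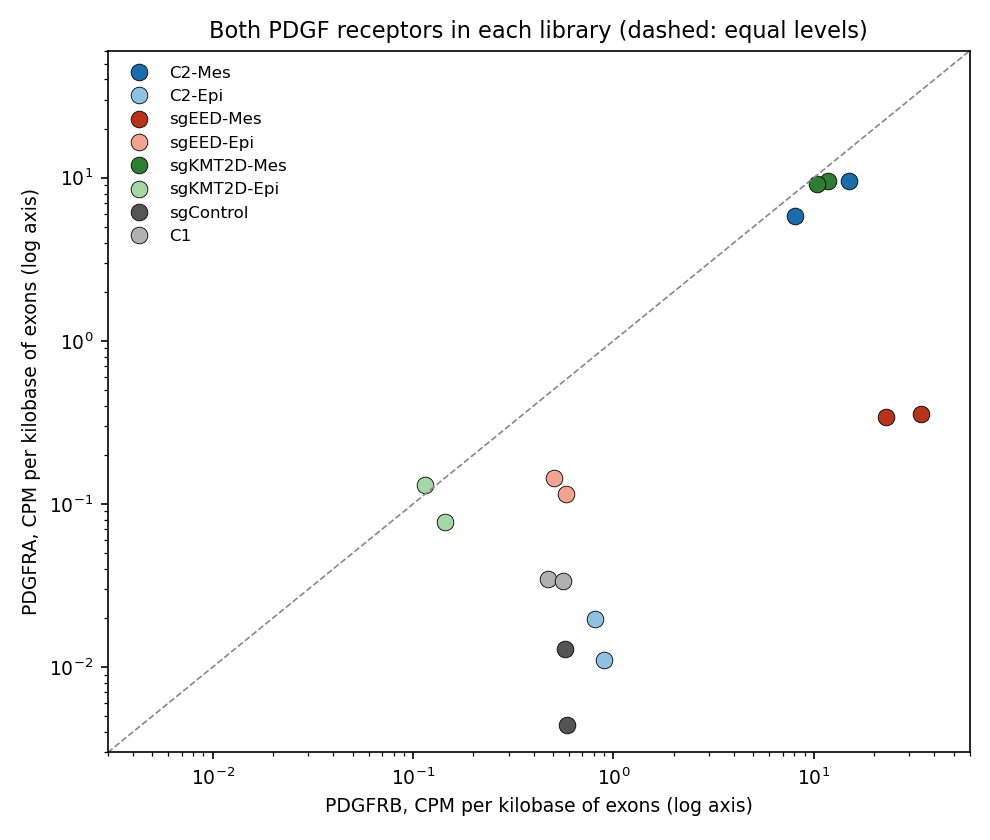
PDGFRA against PDGFRB in each of the 16 libraries, both as CPM per kilobase of exon on log axes. The mesenchymal libraries of C2 and sgKMT2D lie near equal levels, and those of sgEED lie where PDGFRA is between 1.03% and 1.46% of both receptors.

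PDGFA, the ligand of PDGFRA that epithelia are known to make, fell in all 3 changes of state. It stood at 1.52 and 1.44 CPM in C2-Mes, against 21.8 and 21.9 CPM in C2-Epi. In the EED pair it stood at 14.0 and 13.8 CPM in sgEED-Mes, against 22.9 and 26.2 CPM in sgEED-Epi. In the KMT2D pair it stood at 11.9 and 11.3 CPM in sgKMT2D-Mes, against 23.3 and 24.4 CPM in sgKMT2D-Epi. No pair overlapped, and the controls were higher than all of these, with 96.4 and 99.3 CPM in sgControl and 49.4 and 46.4 CPM in C1. The log2 change was -3.89 (SE 0.16, edgeR adjusted p = 2.6e-10) in C2, -0.82 (SE 0.13, edgeR adjusted p = 0.00017) in sgEED and -1.04 (SE 0.13, edgeR adjusted p = 1.5e-05) in sgKMT2D. The fall was deeper in C2 than in either edited line, by a log2 value of 3.06 against sgEED (SE 0.20, edgeR adjusted p = 1.4e-07) and of 2.85 against sgKMT2D (SE 0.20, edgeR adjusted p = 3.7e-07).

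PDGFB encodes the chain that binds both receptors. It measured 9.68 and 7.87 CPM in sgEED-Mes and 10.4 and 12.0 CPM in sgEED-Epi, groups that lay close without overlapping and whose difference did not pass the test (log2 -0.35, SE 0.19, edgeR adjusted p = 0.18). In the other pairs it fell. PDGFB measured 0.251 and 0.262 CPM in sgKMT2D-Mes, 6 reads in each library, against 2.76 and 2.79 CPM in sgKMT2D-Epi (log2 -3.41, SE 0.30, edgeR adjusted p = 5.6e-07). It measured 0.117 and 0.0958 CPM in C2-Mes, 2 and 3 reads, against 1.81 and 2.00 CPM in C2-Epi (log2 -4.14, SE 0.37, edgeR adjusted p = 6.1e-07). That last ratio of 5 to 102 reads is 0.0544 after scaling, with an exact 95% interval of 0.0173 to 0.131 that covers counting error only. The change in sgEED differed from that in sgKMT2D by 3.06 (SE 0.36, edgeR adjusted p = 5.4e-05) and from that in C2 by 3.79 (SE 0.43, edgeR adjusted p = 2.2e-05). The controls stood at 1.34 and 1.63 CPM in sgControl and 4.62 and 3.48 CPM in C1, below both sgEED groups.

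PDGFC was, per kilobase of exon, the most abundant ligand transcript of the mesenchymal groups and rose in all 3 changes. It reached 214 and 255 CPM in sgEED-Mes, against 60.8 and 62.0 CPM in sgEED-Epi. It reached 146 and 142 CPM in sgKMT2D-Mes, against 62.2 and 53.8 CPM in sgKMT2D-Epi. In C2 it stood at 66.9 and 66.8 CPM in C2-Mes, against 38.8 and 40.7 CPM in C2-Epi. The groups of each pair did not overlap, and the controls stood at 37.4 and 30.1 CPM in sgControl and 41.7 and 37.8 CPM in C1. The log2 change was 1.93 (SE 0.15, edgeR adjusted p = 1.9e-07) in sgEED, 1.31 (SE 0.14, edgeR adjusted p = 4.9e-06) in sgKMT2D and 0.75 (SE 0.14, edgeR adjusted p = 0.00085) in C2. The rise in sgEED exceeded that in C2 by 1.18 (SE 0.20, edgeR adjusted p = 0.0008). Its excess of 0.62 over sgKMT2D (SE 0.20, edgeR adjusted p = 0.045) was lost without either sgEED-Epi library, without sgEED-Mes replicate 2, without sgKMT2D-Epi replicate 1 and without either sgKMT2D-Mes library, at adjusted p between 0.067 and 0.15. It was also lost with no filter on low counts (adjusted p = 0.11) and with a correction for GC content and length (log2 0.37, adjusted p = 0.15).

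PDGFD, the D chain that binds PDGFRB, was highest in the edited mesenchymal groups, lower in sgEED-Epi and at a few reads in all other groups. It reached 31.6 and 34.0 CPM in sgKMT2D-Mes (757 and 778 reads), against 0.142 and 0.199 CPM in sgKMT2D-Epi (4 and 5 reads). It reached 12.7 and 10.3 CPM in sgEED-Mes (351 and 235 reads), against 1.14 and 0.666 CPM in sgEED-Epi (30 and 19 reads). The log2 change was 7.56 (SE 0.41, edgeR adjusted p = 4.9e-09) in sgKMT2D and 3.68 (SE 0.33, edgeR adjusted p = 8.4e-07) in sgEED, and these changes differed by -3.89 (sgEED minus sgKMT2D, SE 0.56, edgeR adjusted p = 0.00028). C2-Mes held 1 and 4 reads and C2-Epi 0 and 1, a ratio of 5.55 with an exact 95% interval of 0.621 to 262, and no change was called there (log2 2.19, SE 1.20, edgeR adjusted p = 0.17). The controls held 0 and 1 reads in sgControl and 2 and 0 in C1. PDGFD was thus not detectable above a few reads in any library without a guide against EED or KMT2D, at depths of 18872124 counts or more. The sgKMT2D-Epi libraries, with a KMT2D guide, also held only 4 and 5 reads.

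Of the 6 genes, 4 were called higher and 2 lower in sgKMT2D-Mes against sgKMT2D-Epi, where 50.8% of all genes tested were called. In sgEED-Mes against sgEED-Epi 4 were higher, 1 was lower and 1 was not called, with 36.5% of all genes called. In C2-Mes against C2-Epi 3 were higher, 2 lower and 1 not called, with 39.6% of all genes called. PDGFRA, PDGFRB and PDGFC were higher and PDGFA lower in all 3. The share of all genes called higher was 26.8% in sgKMT2D, 19.2% in sgEED and 21% in C2, and the share called lower was 24%, 17.3% and 18.6%. Of the tests of differences between these changes, 4 of 6 genes were called for sgEED against sgKMT2D (2 higher and 2 lower, at 20.1% of all genes, 9.24% higher and 10.9% lower). For sgEED against C2 5 were called (4 higher and 1 lower, at 21.1% of all genes, 10.2% higher and 10.9% lower), and for sgKMT2D against C2 3 were called (2 higher and 1 lower, at 24.1% of all genes, 12.3% higher and 11.8% lower). Leaving out either C2-Mes library kept every call of the receptors in C2, with log2 changes of 8.48 to 9.13 for PDGFRA and of 3.20 to 4.02 for PDGFRB.

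**Figure D3:**
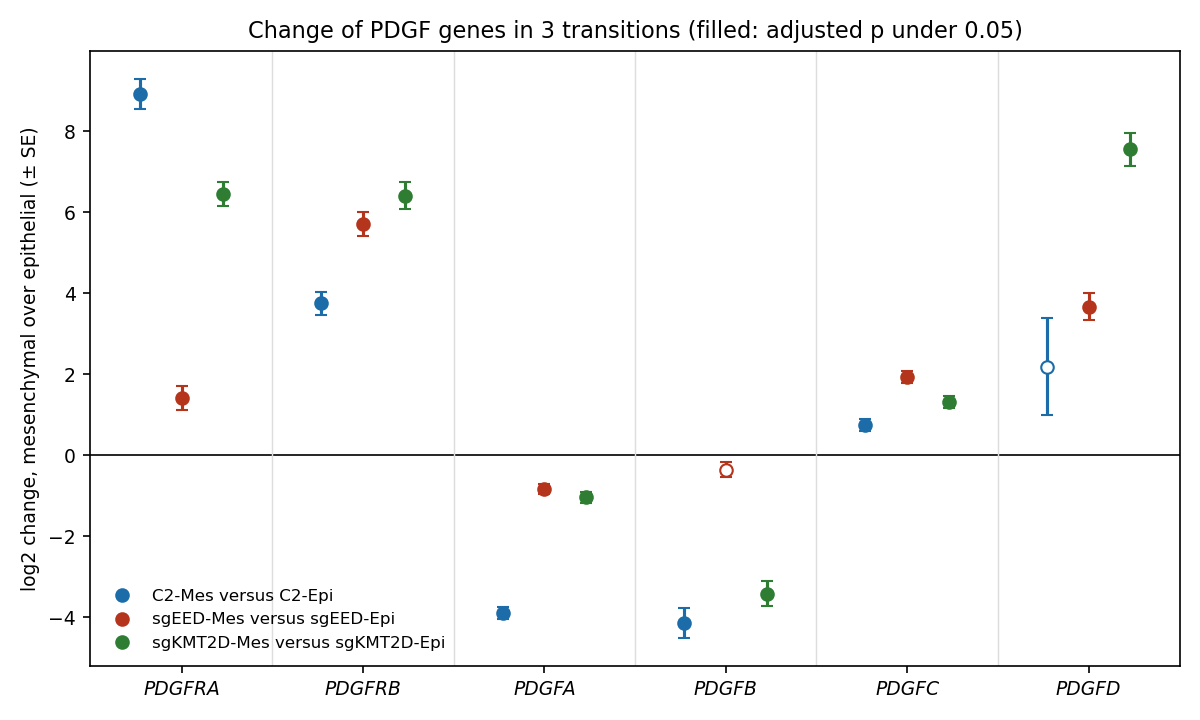
Log2 change of each gene in the 3 changes of state, mesenchymal over epithelial, with points for the estimates, bars for 1 SE and open points where the change was not called. PDGFRA has its smallest change in sgEED (1.42), PDGFB is at -0.35 there and below -3 in both other lines, and PDGFD in C2 has an SE of 1.20.

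The ligand mixture changed with the state. Per kilobase of exon, PDGFC took 96.7% of the ligand transcripts in both C2-Mes libraries, against 54.8% and 55.6% in C2-Epi. With the longest transcript as length, PDGFC took 95.8% and 95.9% in C2-Mes. In C2-Epi it then took 48.3% and 49.2%, and PDGFA 49.0% and 47.9%, so neither led in C2-Epi by that measure. Per kilobase of exon again, the other pairs were as follows. PDGFC took 81.1% and 85.3% in sgEED-Mes, against 56.0% and 53.5% in sgEED-Epi, and 71.6% and 70.3% in sgKMT2D-Mes, against 63.5% and 59.1% in sgKMT2D-Epi. PDGFD made up 20.4% and 22.0% in sgKMT2D-Mes and 6.32% and 4.54% in sgEED-Mes, against at most 1.38% in any other library. PDGFB had its highest share, 14.3% and 15.3%, in sgEED-Epi. PDGFA led in the controls, with 76.7% and 80.4% in sgControl and 57.8% and 59.3% in C1. The summed ligand level was 47.2 and 53.4 CPM per kilobase in sgEED-Mes, 36.4 and 36.3 in sgKMT2D-Mes and 12.4 and 12.3 in C2-Mes. In the epithelial groups it was 19.4 and 20.7 in sgEED-Epi, 17.5 and 16.3 in sgKMT2D-Epi, 12.7 and 13.1 in C2-Epi, 30.3 and 29.8 in sgControl and 20.6 and 18.9 in C1. Only the edited mesenchymal groups exceeded sgControl in this sum, and for sgKMT2D-Mes this depends on the gene length used. With the longest transcript as length, PDGFA in sgControl stood at 42.4 CPM per kilobase (23.6 per kilobase of exon). PDGFC in sgKMT2D-Mes then stood at 34.6 CPM per kilobase (25.8 per kilobase of exon), and the sum in sgKMT2D-Mes no longer exceeded that in sgControl.

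**Figure D4:**
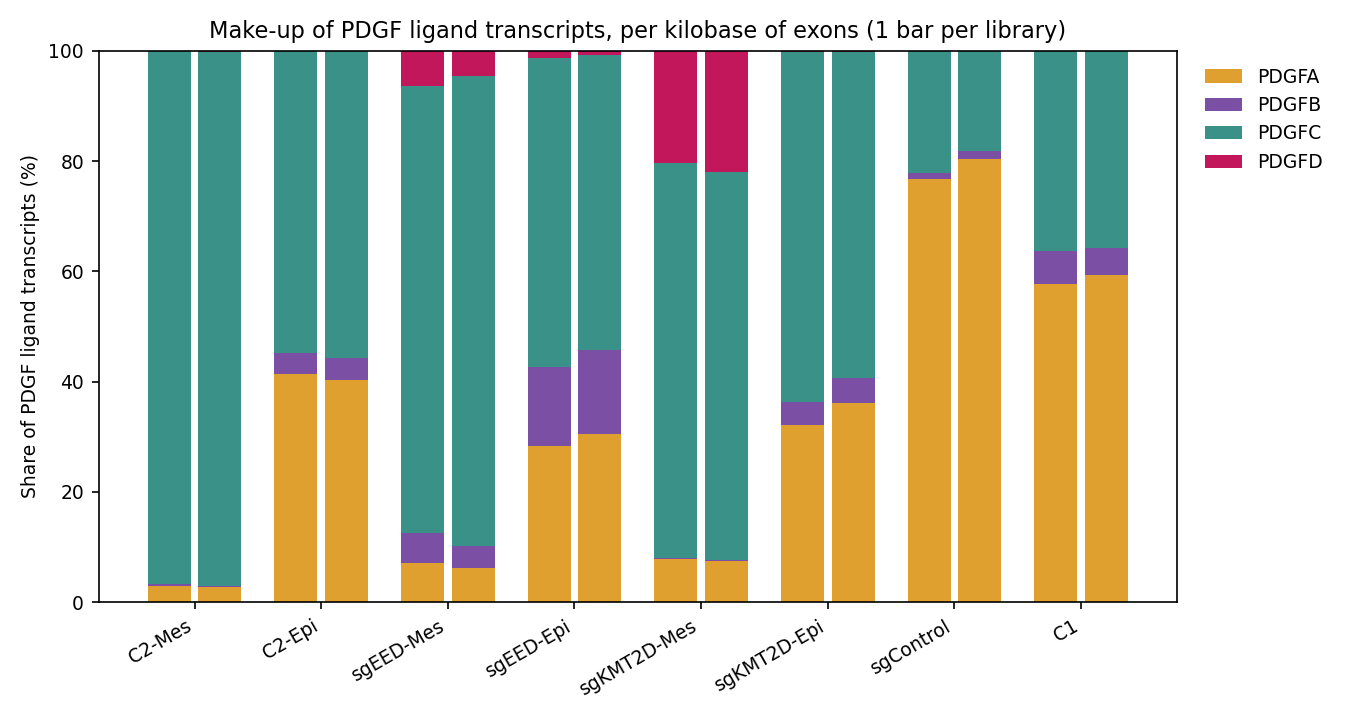
Share of each of the 4 ligand genes in the summed ligand level per kilobase, 1 bar per library, as percent. PDGFC takes most of every mesenchymal bar, PDGFA most of the sgControl and C1 bars, and PDGFD is visible in sgKMT2D-Mes (20.4% and 22.0%) and sgEED-Mes (6.32% and 4.54%).

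The mesenchymal groups were then compared directly, with the same libraries used in 2 of the 3 comparisons each. In sgEED-Mes against sgKMT2D-Mes, 3 of the 6 genes were higher, 2 lower and 1 not called, with 31.1% of all genes called (17.7% higher and 13.4% lower). PDGFRA was lower (log2 -4.73, SE 0.27, edgeR adjusted p = 2.3e-08) and PDGFRB higher (log2 1.36, SE 0.25, edgeR adjusted p = 0.00086). PDGFB was higher (log2 5.07, SE 0.28, edgeR adjusted p = 1.9e-08), as was PDGFC (log2 0.70, SE 0.14, edgeR adjusted p = 0.0019), whereas PDGFD was lower (log2 -1.51, SE 0.27, edgeR adjusted p = 0.00067). PDGFA differed by 0.26 (SE 0.13) and was not called (edgeR adjusted p = 0.15).

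In sgEED-Mes against C2-Mes, 5 of the 6 genes were higher and PDGFRA was lower, with 41.9% of all genes called (21.7% higher and 20.2% lower). PDGFRA differed by -4.46 (SE 0.27, edgeR adjusted p = 1.5e-08) and PDGFRB by 1.31 (SE 0.25, edgeR adjusted p = 0.00075). The 4 ligands were higher by log2 values of 3.23 (PDGFA, SE 0.16), 6.34 (PDGFB, SE 0.33), 1.81 (PDGFC, SE 0.15) and 6.75 (PDGFD, SE 0.46), each with an edgeR adjusted p of 3.1e-07 or less. In sgKMT2D-Mes against C2-Mes 33.4% of all genes were called (16.2% higher and 17.2% lower), and the members called were PDGFA (log2 2.98, SE 0.16), PDGFC (log2 1.11, SE 0.14) and PDGFD (log2 8.26, SE 0.45), all higher. PDGFB, at 12 reads in sgKMT2D-Mes and 5 in C2-Mes, differed by 1.27 (SE 0.51) and was not called (edgeR adjusted p = 0.16). Neither receptor was called there, with log2 differences of 0.27 for PDGFRA (SE 0.22, edgeR adjusted p = 0.38) and -0.06 for PDGFRB (SE 0.24, edgeR adjusted p = 0.89). C2-Mes decides these values: without its replicate 2 PDGFRA differed by 0.62 (edgeR adjusted p = 0.015) and PDGFRB by 0.40, and without its replicate 1 they differed by -0.028 and -0.42. PDGFRB in sgEED-Mes was above C2-Mes by 0.94 without C2-Mes replicate 1 and by 1.76 without replicate 2, and was called both times. Without C2-Mes replicate 2 the PDGFD difference was 7.45 in sgEED-Mes and 8.96 in sgKMT2D-Mes.

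Among the epithelial groups, both guides went with higher PDGFRA and lower PDGFA than in the controls. Low PDGFA was not particular to the guides. Its mean was 21.8 CPM in unedited C2-Epi, 24.6 CPM in sgEED-Epi and 23.9 CPM in sgKMT2D-Epi. PDGFRA had a mean of 0.150 CPM in C2-Epi, against 1.27 CPM in sgEED-Epi and 1.02 CPM in sgKMT2D-Epi. The 2 comparisons with sgControl share its libraries. In sgEED-Epi against sgControl 4 genes were higher, 1 lower and 1 not called, with 48.8% of all genes called (24.3% higher and 24.6% lower), and in sgKMT2D-Epi against sgControl 4 were higher and 2 lower, with 56% called (25.3% higher and 30.7% lower). PDGFRA differed from sgControl by 3.82 in sgEED-Epi (SE 0.54, edgeR adjusted p = 7.2e-05) and by 3.52 in sgKMT2D-Epi (SE 0.56, edgeR adjusted p = 0.00014). These rest on 69 reads in sgEED-Epi, 55 in sgKMT2D-Epi and 4 in sgControl, which give ratios of 14.9 (exact 95% interval 5.55 to 56.1) and 12.2 (4.49 to 46.2). PDGFA differed by -1.99 in sgEED-Epi (SE 0.13, edgeR adjusted p = 1.1e-07) and by -2.04 in sgKMT2D-Epi (SE 0.13, edgeR adjusted p = 7.5e-08). Against C1 in place of sgControl the changes were smaller but called, at 1.91 and 1.61 for PDGFRA and -0.96 and -1.01 for PDGFA in sgEED-Epi and in sgKMT2D-Epi. Without sgControl replicate 1 the PDGFRA changes were 4.74 in sgEED-Epi and 4.44 in sgKMT2D-Epi, and with a correction for GC content and length that in sgKMT2D-Epi was 2.91.

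The remaining 4 genes were set against sgControl in the same way. PDGFB rose by 2.91 in sgEED-Epi against sgControl (SE 0.22, edgeR adjusted p = 4.2e-07), and by 1.47 against C1. In sgKMT2D-Epi it was called higher than sgControl (log2 0.90, SE 0.23, edgeR adjusted p = 0.0043), but stood at -0.54 against C1 (edgeR adjusted p = 0.055), so its direction depends on the control. With the correction for GC content and length it was 1.78 above sgControl. PDGFRB was lower in sgKMT2D-Epi (log2 -2.17, SE 0.34, edgeR adjusted p = 0.00012, and -1.57 with that correction), whereas in sgEED-Epi it was -0.10 from sgControl (SE 0.29, edgeR adjusted p = 0.80). PDGFC was higher by 0.86 in sgEED-Epi (SE 0.14, edgeR adjusted p = 0.00028) and by 0.78 in sgKMT2D-Epi (SE 0.14, edgeR adjusted p = 0.00046). With the same GC content and length correction these became 0.32 and -0.030, and the second was no longer called (edgeR adjusted p = 0.87). PDGFD was higher in sgEED-Epi (49 reads against 1, ratio 42.2, exact 95% interval 7.23 to 1701, log2 5.11, edgeR adjusted p = 0.00012). It stayed called with any 1 library left out, at 4.25 without sgControl replicate 1 and 7.52 without sgControl replicate 2. Its difference in sgKMT2D-Epi (9 reads against 1, ratio 7.96, interval 1.10 to 349) was at the threshold (edgeR adjusted p = 0.045). That call was lost with DESeq2 (adjusted p = 0.079), with the correction for GC content and length (0.17), without sgControl replicate 1 (0.21), without either sgKMT2D-Epi library (0.073 and 0.13) and against C1 (0.13), while without sgControl replicate 2 the log2 change was 5.18 (0.049).

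Set against each other, sgEED-Epi had more PDGFRB (log2 2.07, SE 0.34, edgeR adjusted p = 0.00067) and more PDGFB (log2 2.01, SE 0.21, edgeR adjusted p = 1.5e-05) than sgKMT2D-Epi, in a comparison with 17.5% of all genes called (12.9% higher and 4.61% lower). PDGFD was also higher in sgEED-Epi (log2 2.38, SE 0.51, edgeR adjusted p = 0.0046), a call lost without sgKMT2D-Epi replicate 1 (adjusted p = 0.080). PDGFRA, PDGFA and PDGFC differed by 0.30, 0.04 and 0.08 and were not called.

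The unedited and control cells differed as well. In sgControl against C1 27.1% of all genes were called (13.3% higher and 13.8% lower), among them PDGFA, higher by 1.03 (SE 0.12, edgeR adjusted p = 8.1e-05), and PDGFB, lower (log2 -1.44, SE 0.23, edgeR adjusted p = 0.00053). PDGFRA, at 4 reads in sgControl and 16 in C1, had a ratio of 0.254 (exact 95% interval 0.0619 to 0.789) and was not called (edgeR adjusted p = 0.058, and 0.042 with no filter on low counts). The other 3 genes were not called. In C2-Epi against C1, with 30.7% of all genes called (12.4% higher and 18.3% lower), PDGFA was lower (log2 -1.13, SE 0.13, edgeR adjusted p = 2.4e-05), as was PDGFB (log2 -1.09, SE 0.22, edgeR adjusted p = 0.0022). The PDGFB call was lost without C1 replicate 1 (edgeR adjusted p = 0.053), and its log2 difference was -0.62 with the correction for GC content and length. PDGFRB was 0.73 higher in C2-Epi (SE 0.28) and missed the threshold (edgeR adjusted p = 0.066). It passed with DESeq2 (adjusted p = 0.046) and more clearly in another alternative run (lowest edgeR adjusted p = 0.00059). Over all alternatives its log2 difference ran from 0.68 to 1.08.

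Of genes listed beside the PDGF system, those that bind receptors or ligands and the receptor-like PDGFRL moved together. The co-receptor NRP1, the endocytic receptor LRP1, which associates with PDGFRB, the receptor-like protein PDGFRL and the matrix protein SPARC, which binds PDGF chains, were called higher in all 3 changes of state (4 of 4 each time). The share of all genes called higher was 19.2% in sgEED, 26.8% in sgKMT2D and 21% in C2. Like the other lists, this one was chosen with earlier results of these data known, so its count is not independent of them. The median log2 change of these 4 genes was 2.78 in sgEED, 3.59 in sgKMT2D and 3.28 in C2, against 0.01, 0.02 and 0.01 over all genes tested. PDGFRL, for example, measured 38.0 CPM in sgEED-Mes against 3.87 CPM in sgEED-Epi and 92.4 CPM in sgKMT2D-Mes against 2.35 CPM in sgKMT2D-Epi. In C2-Mes its libraries stood apart at 18.7 and 64.9 CPM, both above the mean of 0.538 CPM in C2-Epi. NRP1 changed by 1.38 in sgEED, 2.27 in sgKMT2D and 2.61 in C2. All 4 calls in C2 held without any 1 library of C2, but sizes moved with the C2-Mes library. Without C2-Mes replicate 2 the log2 change of PDGFRL was 5.06 (6.27 with both) and that of SPARC 0.70 (1.72 with both), and without C2-Mes replicate 1 that of LRP1 was 3.33 (3.95 with both).

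The proteases that process the chains did not move together. PLAT, tissue plasminogen activator, which cuts the C chain, rose by 1.84 in sgEED and 3.22 in sgKMT2D. In C2 the change of PLAT rested on 1 library, with 23.7 and 58.6 CPM in C2-Mes against 18.7 and 16.8 CPM in C2-Epi (log2 1.22, edgeR adjusted p = 0.0045). It was not called without C2-Mes replicate 2 (log2 0.38, edgeR adjusted p = 0.085) or without C2-Epi replicate 2 (1.06, 0.051). ST14 and PLAU, matriptase and urokinase, which cut the D chain, fell in all 3. ST14 stood at 1.31 CPM in sgEED-Mes against 97.8 CPM in sgEED-Epi (log2 -6.21), at 0.424 CPM in sgKMT2D-Mes against 57.9 CPM in sgKMT2D-Epi (log2 -7.07) and at 0.500 CPM in C2-Mes against 33.9 CPM in C2-Epi (log2 -5.91, and -7.20 without C2-Mes replicate 2). PLAU changed by -1.19, -1.20 and -1.21 and kept 109 CPM in sgEED-Mes, 61.3 CPM in sgKMT2D-Mes and 101 CPM in C2-Mes. FURIN, which processes the A and B chains within the cell, was called higher by 0.94 in sgEED, 0.83 in sgKMT2D and 1.49 in C2. Its call in sgEED held only without sgEED-Mes replicate 2, and that in sgKMT2D was lost without any 1 of the 4 libraries. In C2 it stayed called, at 0.71 without C2-Mes replicate 2. Over all genes tested, 19.2% were called higher and 17.3% lower in sgEED, 26.8% and 24% in sgKMT2D, and 21% and 18.6% in C2. Of the 5 listed proteases, 3 rose and 2 fell in each edited line, and 2 rose and 2 fell in C2. With 1 library left out, 1 to 2 rose in sgEED, 2 in sgKMT2D and 1 to 2 in C2, and 2 fell in each.

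**Figure D5:**
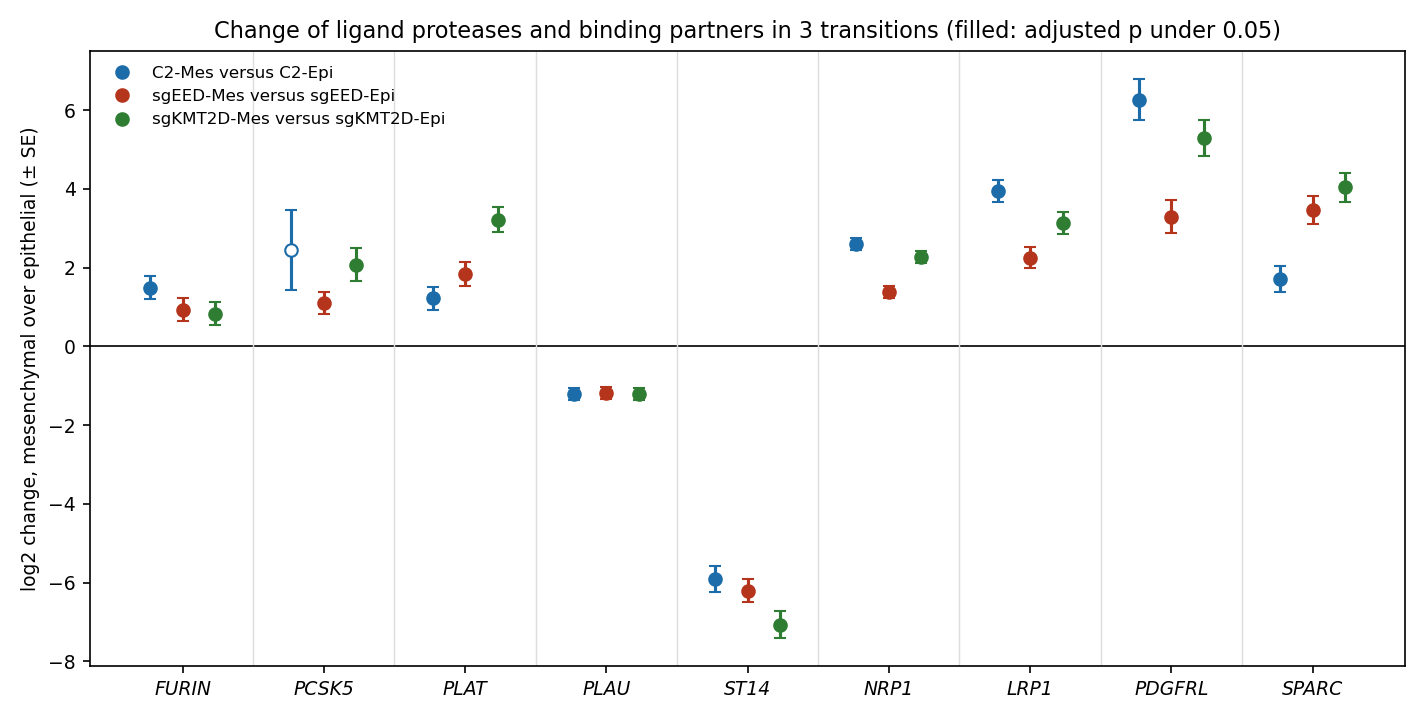
Log2 change of 5 ligand proteases and 4 other genes in the 3 changes of state, mesenchymal over epithelial. Bars show 1 SE and filled points called changes. The binding partners NRP1, LRP1 and SPARC and the receptor-like PDGFRL lie above 0 in all 3, and ST14 lies between -5.91 and -7.07.

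Downstream of the receptors, calls in sgEED and sgKMT2D came near the share over all genes. Of 19 adaptors and effectors tested, 3 rose and 3 fell in sgEED (15.8% each, against 19.2% of all genes higher and 17.3% lower). In sgKMT2D 6 rose and 6 fell (31.6% each, against 26.8% and 24%), and in C2 3 rose and 6 fell (15.8% and 31.6%, against 21% and 18.6%). The C2 counts became 2 and 9 without C2-Mes replicate 1 and 4 and 4 without C2-Mes replicate 2. The medians were 0.13 in sgEED, -0.15 in sgKMT2D and -0.31 in C2. PIK3R1, the regulatory subunit of PI3-kinase, was called higher by 1.03 in sgEED, 1.16 in sgKMT2D and 1.14 in C2, and each call was lost in 3 of the 4 fits that left out 1 of its libraries. In C2 its log2 change was 0.39 without C2-Mes replicate 1. NCK2, an adaptor to the cytoskeleton, fell by 1.02 in sgEED, 1.57 in sgKMT2D and 2.87 in C2 on the log2 scale, and stayed called with any 1 library left out. Of 8 genes that attenuate the receptors, 4 rose and 0 fell in sgEED, 1 rose and 5 fell in sgKMT2D, and 3 rose and 0 fell in C2, where 3 rose and 3 fell without C2-Mes replicate 1. With 1 library left out, 2 to 3 rose in sgEED and 2 to 4 fell in sgKMT2D. PTPRJ, a phosphatase that acts on the receptors, rose in sgEED (12.9 CPM in sgEED-Mes against 3.81 CPM in sgEED-Epi, log2 1.76) and fell in sgKMT2D (1.11 CPM in sgKMT2D-Mes against 4.35 CPM in sgKMT2D-Epi, log2 -1.96). The ubiquitin ligase CBLB was called higher by 1.63 in C2, with 80.9 and 36.3 CPM in C2-Mes, and by 0.83 without C2-Mes replicate 1. Its calls of 0.79 in sgEED and 0.72 in sgKMT2D were lost without any 1 library.

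Immediate early genes, a common transcript readout of growth factor signalling, also went both ways. Of 14 tested, 3 rose and 4 fell in sgEED (21.4% and 28.6%, against 19.2% and 17.3% of all genes). In sgKMT2D 7 rose and 4 fell (50.0% and 28.6%, against 26.8% and 24%), and in C2 1 rose and 6 fell (7.14% and 42.9%, against 21% and 18.6%). The C2 counts were 0 and 11 without C2-Mes replicate 1 and 3 and 5 without C2-Mes replicate 2. EGR2 measured 138 CPM in sgEED-Mes against 3.27 CPM in sgEED-Epi (log2 5.40), and EGR3 38.9 CPM in sgKMT2D-Mes against 1.05 CPM in sgKMT2D-Epi (log2 5.19). MYC fell by 1.82 in sgEED and 2.00 in sgKMT2D, and was not called in C2 (-0.32), but was without C2-Mes replicate 1 (-0.71). In sgControl against C1 12 of these 14 genes were higher and 0 lower (13.3% and 13.8% of all genes), and 6 to 9 were higher with 1 library left out. In sgKMT2D-Epi against sgControl, which uses the same sgControl libraries, 0 were higher and 12 lower (25.3% and 30.7% of all genes), and 9 were lower with any 1 library left out.

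Among close relatives of the receptors, CSF1R is the direct neighbour of PDGFRB, with 465 bases between the annotated genes. CSF1R moved the other way: it stood at 2.05 CPM in sgEED-Mes against 5.98 CPM in sgEED-Epi (log2 -1.54), at 0.427 CPM in sgKMT2D-Mes against 1.18 CPM in sgKMT2D-Epi (log2 -1.46) and at 1.08 CPM in C2-Mes against 2.59 CPM in C2-Epi (log2 -1.19), and was called in each. TIGD6, also near PDGFRB, rose by 1.32, 1.00 and 0.85 in the same order. HMGXB3, which lies nearer to PDGFRB than TIGD6, changed by 0.23, -0.51 and -0.06 and was called only in sgKMT2D. KIT, the paralog next to PDGFRA, had no read in C2 or sgKMT2D libraries of either state and was not tested, and CHIC2 on the other side of PDGFRA was called in none of the 3 changes. SRD5A3, further off on the side of KIT, was called higher in all 3, by 1.07, 1.23 and 2.03. LNX1 and KDR, also near PDGFRA, were higher in some changes and lower in others. FLT1, a receptor of the related VEGF family, measured 34.6 CPM in sgEED-Mes and was listed at 0 in sgKMT2D-Mes and in C2-Mes, so it was at least 269.9-fold and 255.6-fold higher, taking 3 counts in each such library as the floor. Among related ligands CSF1 rose by 0.96, 1.63 and 1.15, and VEGFA fell by 1.75 in sgKMT2D and 0.81 in C2 and was not called in sgEED. The VEGFA call in C2 was lost without C2-Mes replicate 2 and without C2-Epi replicate 2. Its mean there was 178 CPM (SD 78.7) in C2-Mes and 312 CPM (SD 28.9) in C2-Epi.

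Across the 16 libraries, the genes whose log2 CPM followed each member most closely were taken from 11688 protein-coding genes by Pearson's r. They were MIOS (0.976), SPTLC3 (0.969) and NRP1 (0.962) for PDGFRA, and SEC24D (0.973), HRCT1 (0.972) and SSC5D (0.971) for PDGFRB. For the ligands they were EDDM13 (0.978) and LIMK2 (0.976) for PDGFA, KRT8 (0.954) and GATM (0.950) for PDGFB, NSF (0.981) and PAPSS2 (0.972) for PDGFC, and RNF150 (0.967) and CNRIP1 (0.965) for PDGFD. Among the members themselves PDGFC and PDGFD were closest (r = 0.905), and PDGFRA and PDGFA most opposed (r = -0.826), while PDGFRA and PDGFRB had r = 0.716. The 16 libraries are 8 pairs of replicates in 2 states, so the points are not independent, and no test was made.

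Of markers of cells that carry PDGF genes in tissue, the mural ones summed higher in each mesenchymal group than in its epithelial group. The other lists were low in most libraries. The 8 mural markers summed to 653 and 521 CPM in sgEED-Mes against 221 and 250 CPM in sgEED-Epi, to 271 and 258 CPM in sgKMT2D-Mes against 119 and 128 CPM in sgKMT2D-Epi, and to 677 and 419 CPM in C2-Mes against 125 and 113 CPM in C2-Epi. The sums in sgKMT2D-Mes were no higher than the 292 and 285 CPM of C1. Single markers differed in direction there. RGS5 (20.8 against 0.959 CPM) and ACTA2 (108 against 57.5 CPM) had a higher mean in sgKMT2D-Mes than in C1. CSPG4 (35.3 against 86.5 CPM), MCAM (48.2 against 84.7 CPM) and NOTCH3 (52.5 against 58.9 CPM) had a lower one. The receptors summed to 21.3 and 19.5 CPM per kilobase in sgKMT2D-Mes against 0.504 and 0.595 CPM per kilobase in C1. A link between mural markers and receptor levels was not tested. RGS5, CSPG4, NOTCH3 and ACTA2 had a higher mean in the mesenchymal group of all 3 pairs. NOTCH3, for example, measured 58.9 against 17.1 CPM in sgEED, 52.5 against 2.42 CPM in sgKMT2D and 325 against 21.4 CPM in C2. MCAM was higher in sgEED-Mes and C2-Mes but lower in sgKMT2D-Mes (48.2 against 79.3 CPM in sgKMT2D-Epi). ABCC9, KCNJ8 and DES did not rise in all 3. Between mesenchymal groups, single mural markers differed in direction. Between sgKMT2D-Mes and C2-Mes, RGS5 (20.8 against 2.62 CPM), MCAM (48.2 against 25.0 CPM) and ACTA2 (108 against 80.2 CPM) were at a higher mean in sgKMT2D-Mes, and NOTCH3 (52.5 against 325 CPM), CSPG4 (35.3 against 102 CPM) and ABCC9 (0 against 12.3 CPM) in C2-Mes. KCNJ8 was at 0 in sgKMT2D-Mes and 1.06 CPM in C2-Mes, and DES stood at 0.0219 against 0.0452 CPM. The 6 endothelial markers summed to 25.8 and 39.7 CPM in C2-Mes and to between 3.05 and 10.2 CPM elsewhere. Against C2-Epi, C2-Mes had more PECAM1 (21.03 against 2.89 CPM), EGFL7 (6.92 against 0.630 CPM), VWF (3.40 against 0.222 CPM) and CLDN5 (1.36 CPM against 0), while TEK stood at 0.0611 against 0.0181 CPM and CDH5 was at 0 in both. The part of these endothelial markers in the C2 changes was not tested. The 4 platelet markers summed to at most 1.57 CPM, with PF4 and GP9 at 0 in all libraries. The 5 leukocyte markers summed to 43.7 and 47.7 CPM in sgControl, of which LAPTM5 made up nearly all and PTPRC was at 0, and to between 2.79 and 15.8 CPM elsewhere.

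A read-through gene on the same strand (ENSG00000282278) shares 1533 exonic bases with PDGFRA, and DDI1 on the opposite strand shares 193 with PDGFD. Both were listed at 0 counts in every library. How reads in shared exons were counted is not given in the sources used here.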

How the data were processed

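RNA-seq of 16 HMLER libraries was analysed from the deposited tables of raw counts per gene. Per the submitters' processing notes, reads were aligned to GRCh38 with STAR 2.7.1a and counted with featureCounts. Not given in the sources used here are the strandedness, the treatment of multi-mapped reads and the release of the annotation. Symbols and coordinates came from GENCODE 29, which holds 94.1% of the genes.

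Counts were fitted in R 4.3.3 with edgeR 4.0.16 (limma 3.58.1): filterByExpr kept 18285 genes, TMM scaled the libraries, and robust quasi-likelihood tests estimated a mean for each group from all 16 libraries together, leaving 8 residual degrees of freedom. P-values were Benjamini-Hochberg adjusted over all genes in each of 11 comparisons of groups and 3 interactions. CPM per kilobase used the union of a gene's exons, and as an alternative the length of its longest transcript. Ratios of sums of few reads have exact 95% intervals. The procedure was tested on simulated data.

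The members, lists and rules were chosen with earlier results of these data known. The text names all 6 members, at most 4 called genes of each partner list per comparison (at least 1 CPM, largest changes), the 5 most correlated genes of a member (log2 CPM with a prior count of 2, at least 5 CPM in a group) and the 3 nearest genes on each side of each receptor, and prints some of these. Promoter windows are those of RefSeq (GRCh38.p14). Alternatives were RLE scaling, no filter, DESeq2 1.42.0, only the compared libraries, a replicate block, a correction for GC content and length (per library, a 4-df spline fitted to genes averaging 50 counts or more), C1 in place of sgControl, and each library left out in turn. For partner genes and lists, leaving out each library was chosen after seeing the data. Replicate numbers did not pair samples. Figures were drawn with matplotlib 3.10.9 in Python 3.11.15.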

Additional observations from a re-analysis of the deposited data

Results flagged for a closer look

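These values are differences, on the log2 scale, between the mesenchymal over epithelial changes of 2 lines that passed edgeR's test of the difference itself. They stand out because the same change of state moved a gene by unlike amounts.

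For sgEED against sgKMT2D the differences were -5.03 for PDGFRA, 3.06 for PDGFB, 0.62 for PDGFC (edgeR adjusted p = 0.045) and -3.89 for PDGFD, where 20.1% of all genes tested were called. For sgEED against C2 they were -7.50 for PDGFRA, 1.96 for PDGFRB, 3.06 for PDGFA, 3.79 for PDGFB and 1.18 for PDGFC, where 21.1% of all genes were called. For sgKMT2D against C2 they were -2.47 for PDGFRA, 2.66 for PDGFRB and 2.85 for PDGFA, where 24.1% of all genes were called. The first 2 sets share the sgEED libraries and the last 2 share the C2 libraries, so they are not independent. The differences that passed without each library in turn were those of PDGFRA and PDGFB in both sets with sgEED, of PDGFRB and PDGFA in both sets with C2, of PDGFRA for sgKMT2D against C2, of PDGFC for sgEED against C2 and of PDGFD for sgEED against sgKMT2D. The PDGFC difference between sgEED and sgKMT2D did not.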

How the results depend on the processing

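All calls of the 6 PDGF genes in the 3 changes of state held in each alternative run. Counts of genes called moved by over 1.5 times when only the compared libraries were fitted: to 3361 for C2-Mes against C2-Epi (7246 in the fit of all libraries), 3567 for sgEED-Mes against C2-Mes (7663), 2111 for sgKMT2D-Mes against C2-Mes (6103), 9967 for C2-Epi against C1 (5620) and 2130 for the sgEED and C2 interaction (3865). With C1 as the control, 4601 genes were called in sgEED-Epi (8930 with sgControl). Leaving out 1 library at a time gave 2629 to 3466 called genes for C2-Epi against C1, 2226 to 3538 for sgControl against C1 (4951), 1555 to 3261 for sgEED-Epi against sgKMT2D-Epi (3202), 3557 to 5301 for sgEED-Mes against sgKMT2D-Mes (5686) and 4041 to 8249 for sgKMT2D-Mes against C2-Mes. The interactions gave 2293 to 4118 (sgEED and sgKMT2D, 3674) and 3095 to 6749 (sgKMT2D and C2, 4410). In sgKMT2D-Mes against C2-Mes the log2 difference of PDGFRA ran from -0.028 to 0.62 and that of PDGFRB from -0.42 to 0.40.

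Some differences changed sign. Among these, PDGFB in sgKMT2D-Epi against sgControl (log2 0.90) was called, and PDGFD was not called at -0.98 in C2-Epi against C1, -0.83 in sgControl against C1 and 1.49 in the sgEED and C2 interaction. PDGFC in C2-Epi against C1 (-0.00) was 0.020 with RLE scaling and with DESeq2, 0.083 with no filter and 0.035 with only the compared libraries. It kept its sign but moved to -0.37 with the correction for GC content and length. Its lowest edgeR adjusted p over the alternatives was 0.038, so PDGFC did not stay near 0 in every run. With the correction for GC content and length, PDGFC was 0.093 in sgControl against C1 and -0.030 in sgKMT2D-Epi against sgControl, PDGFRB was 0.24 in sgEED-Epi against sgControl, and PDGFA was -0.12 in sgEED-Epi against sgKMT2D-Epi. Against C1, PDGFRB in sgEED-Epi was 0.076 and PDGFB in sgKMT2D-Epi -0.54. With 1 library left out, sign changes were seen for PDGFC (0.018 to 0.15) and PDGFD (-3.22 to 2.31) in C2-Epi against C1, PDGFD in sgControl against C1 (-3.22 to 2.38) and in the sgEED and C2 interaction (-0.79 to 2.41), and PDGFRB in sgEED-Epi against sgControl (-0.14 to 0.0093). In sgEED-Epi against sgKMT2D-Epi they were seen for PDGFA (-0.067 to 0.080), PDGFRA (-0.055 to 0.71) and PDGFC (-0.061 to 0.16). The cause was not tested. A replicate block, whose numbers did not pair samples (r between -0.394 and 0.520 over 28 pairs of groups, 9 over 0.1), gave 95.3% to 99.2% of the called genes over 14 comparisons and turned PDGFC in C2-Epi against C1 to 0.0010. Under the block, PDGFD in sgKMT2D-Epi against sgControl (adjusted p = 0.051) and the PDGFC difference between sgEED and sgKMT2D (0.056) were no longer called. Depth limits PDGFD in C2 and the controls, and PDGFB in C2-Mes.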
